A study of Bos taurus with 12 samples.

Results

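Albumin and 9 other carrier and binding proteins that hepatocytes secrete into plasma were followed in the liver of early lactating dairy cows: ALB, AFM, GC, TTR, RBP4, SERPINA6, AHSG, FETUB, PON1 and PON3. A gene was taken when the array annotation gave its symbol, and no other, to a transcript. All 10 genes were found on 1 transcript each, out of 26773 transcripts. Liver biopsies came from 12 lactating Holstein cows, taken 7 ± 2 days after calving, and each was hybridised to 1 Affymetrix Bovine Gene 1.0 ST array. The 6 cows of the GSGME group received a total mixed ration with 1% of dry matter as GSGME, a flavonoid-rich extract made from the seeds and marc meal of grapes, from week 3 before the expected calving date onwards. The 6 control cows received the same ration with 1% wheat bran in its place. Each group held 1 primiparous cow and otherwise multiparous cows, drawn at random from a larger trial. The sources used here give no age for single cows.

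Plasma carriers keep poorly soluble or easily lost molecules in the circulation. Albumin carries fatty acids, bilirubin, calcium and many drugs, transthyretin carries thyroid hormone and holds the complex of RBP4 and retinol, and vitamin D travels on the product of GC. During an acute phase response the liver makes more haptoglobin, serum amyloid A and other positive acute phase proteins and, in general, less albumin, transthyretin and retinol binding protein, which are therefore called negative acute phase proteins. In dairy cows such a response is common around calving. The comparison therefore asked how the hepatic mRNA of these carriers differed between cows fed GSGME and control cows, and how it varied among single cows.

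The values were log2 signals, so that a difference of 1 is a doubling. Medians of the arrays lay between 6.02 and 6.17, their highest signals lay between 14.12 and 14.22, and pairwise correlations lay between 0.968 and 0.990. As a measure of background, 717 olfactory receptor transcripts had a median of 3.67, a 90th percentile of 5.23 and a highest mean of 8.745. Every value of the 10 genes lay above that 90th percentile. The values of SERPINA6 (6.24 to 8.63) lay below the highest olfactory receptor mean, and those of the other genes lay above it. Hepatocyte markers outside the 10 genes (12 of 12 measured, such as APOB, CPS1 and ASGR1) had list means between 11.60 and 11.86 in control and between 11.71 and 11.86 in GSGME cows, so the biopsies carried liver signal in every cow. The signal of a probe set depends on its sequence, so levels are compared between cows and never between genes. In a biopsy, fewer cells of a type and less RNA per cell cannot be told apart.

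None of the 10 genes differed between the groups at the criterion used for this study, a fold beyond 1.3 with an unadjusted p below 0.05, here in limma (two-sided). Of all transcripts, 1.20% were higher and 0.624% were lower with GSGME at this criterion, 1.83% together. Without the fold, 2.68% were higher and 3.17% lower at an unadjusted p below 0.05, 5.85% together, and none of the 10 genes was among them. The methods' t-test at an unadjusted p below 0.05 took 2.38% as higher and 3.34% as lower, 5.71% together, and among the 10 genes ALB and RBP4, both higher, with folds below 1.3. The lowest adjusted p of the 10 was that of FETUB, 0.830. No transcript of the array had a Benjamini-Hochberg adjusted p below 0.05, either in limma (1567 with an unadjusted p below 0.05) or with the methods' t-test (1530). Of the 10 genes, 8 had the higher mean in cows fed GSGME, SERPINA6 had the lower mean and GC had equal means. Their median log2 difference was 0.08, against -0.015 for all transcripts, of which 45.2% had the higher and 54.3% the lower mean with GSGME, and 0.01 for the 13386 transcripts above the median transcript, of which 7098 did. For ALB, RBP4, GC and AFM the whole 95% interval of the difference lay within a fold of 1.3 in either direction, as it did for 59.6% of all transcripts. For the other 6 genes a fold of 1.3 lay inside the interval.

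**Figure D1:**
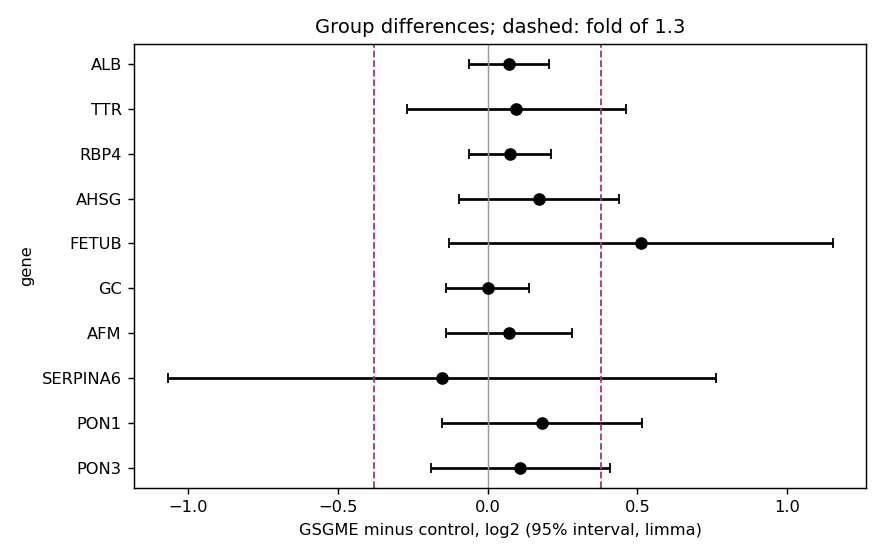
Mean of the GSGME group minus mean of the control group (log2, horizontal axis) for the 10 genes, as points with 95% intervals from limma (6 cows per group); dashed lines mark a fold of 1.3. All intervals include 0, the narrowest are those of ALB (-0.06 to 0.20), RBP4 and GC, and the widest is that of SERPINA6 (-1.07 to 0.76).

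Of the albumin family, ALB lay near the top of the scale of the arrays and was nearly level among cows. In control cows its log2 signal ran from 13.63 to 13.79 with a median of 13.75, and in cows fed GSGME from 13.78 to 13.82 with a median of 13.81. All 6 GSGME cows lay above the control mean and 5 lay above the highest control cow, so that the groups overlapped in a single GSGME cow (GSGME_1001). The difference was 0.07, a fold of 1.05 (95% interval 0.957 to 1.15, limma adjusted p = 0.866). An exact permutation test over all 924 assignments of cows, two-sided, gave p = 0.00433 for ALB (limma p = 0.281), where the design allows no p below 0.00216. At an unadjusted exact p below 0.05, 5.64% of all transcripts were found, 2.39% in the higher direction. In limma, which draws the spread of each transcript towards that of all, the SD used for ALB was 0.108, against its own within-group SD of 0.0411. Leaving out single cows kept the exact p between 0.00216 and 0.0108, but after cyclic loess between arrays the difference was 0.04 with an exact p of 0.331. The 43 transcripts with means above 13 had a median SD of 0.0757 over the arrays, against 0.202 for all transcripts. Whether the upper end of the scale narrowed the values of ALB was not tested.

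GC, the vitamin D binding protein, was as even. Its log2 signal ran from 13.18 to 13.32 in control and from 13.17 to 13.32 in GSGME cows, with medians of 13.25 in each group. The group means were equal, 13.25 ± 0.05 for control and 13.25 ± 0.06 for GSGME (SD over 6 cows). The 95% interval of the difference reached from -0.14 to 0.14 in limma. AFM, afamin, a vitamin E binding glycoprotein of the same family, ran from 11.20 to 11.61 (median 11.37) in control and from 11.24 to 11.66 (median 11.47) in GSGME cows. The groups of AFM overlapped almost fully, and its difference of 0.07 had a limma p of 0.477 and an exact permutation p of 0.457. On the chromosome AFP lies between ALB and AFM in the gene table used here. AFP, the fetal counterpart of albumin, had log2 signals from 4.14 to 5.02, in the range of the olfactory receptor signals.

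TTR, transthyretin, varied more widely than its partner in retinol transport. In control cows its log2 signal ran from 12.45 to 13.52 with a median of 12.98, and in GSGME cows from 12.81 to 13.37 with a median of 13.03. Control cows held the 2 lowest values, those of cows control_1017 and control_1150, as well as the highest, that of cow control_1041, and the GSGME cows lay inside the control range. The difference was 0.10 (95% interval -0.27 to 0.46, limma p = 0.587, exact permutation p = 0.634), and it turned to -0.01 without cow control_1017.

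RBP4, the retinol carrier, ran from 12.54 to 12.72 (median 12.63) in control and from 12.66 to 12.74 (median 12.71) in GSGME cows. All 6 GSGME cows lay above the control mean, and 1 lay above the highest control cow. The difference was 0.07, a fold of 1.05 (95% interval 0.957 to 1.16), with a limma p of 0.269 and an exact permutation p of 0.0346. As for ALB, the within-group SD of RBP4, 0.0486, was smaller than the 0.110 that limma took. Without cow control_1041, control_1031 or control_1150 or cow GSGME_741, the exact p of RBP4 lay between 0.0519 and 0.0736, and after cyclic loess it was 0.212 at a difference of 0.04.

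SERPINA6, the corticosteroid-binding globulin, was the most variable of the 10 genes, with an SD of 0.832 over the 12 cows, above that of 99.4% of transcripts. In control cows its log2 signal ran from 6.24 to 8.63 with a median of 7.57, and in GSGME cows from 6.48 to 8.02 with a median of 7.67. The span over all cows was 5.24-fold. Values were spread widely within each diet. Cows control_1041, control_1031, control_825 and GSGME_1124 lay above 8, and cows control_1017, control_1150, GSGME_741 and GSGME_1001 lay between 6.24 and 6.64. In between lay cows control_819 (7.08), GSGME_1047 (7.66), GSGME_1143 (7.68) and GSGME_821 (7.72). The GSGME mean was lower by 0.15 (95% interval -1.07 to 0.76, limma p = 0.725, exact permutation p = 0.766). This direction turned without cow control_1041 (0.07), cow control_1031 (0.06) or cow GSGME_741 (0.02).

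The fetuins are made from neighbouring genes. AHSG, fetuin-A, which keeps calcium phosphate in solution, ran from 12.15 to 12.87 (median 12.53) in control and from 12.45 to 12.96 (median 12.69) in GSGME cows. Cow control_1031 was lowest, cow GSGME_1143 highest, and 4 of 6 GSGME cows lay above the control mean. The difference was 0.17, a fold of 1.13 (limma p = 0.194, exact permutation p = 0.240), and it was 0.097 without cow control_1031. DNAJB11, a chaperone of the endoplasmic reticulum on the other side of AHSG, was lower with GSGME at the criterion, with means of 8.38 for control and 7.92 for GSGME (difference -0.46, limma p = 0.0123, exact permutation p = 0.0238) and r = -0.26 with AHSG. Without cow control_1150 or GSGME_741 its fold fell below 1.3. FETUB, fetuin-B, a protease inhibitor, had the largest difference of the 10 genes. Its log2 signal ran from 9.40 to 10.61 (median 9.67) in control and from 9.14 to 11.24 (median 10.46) in GSGME cows. Cow GSGME_741 was highest of all cows and cow GSGME_1047 was lowest, while the other 4 GSGME cows lay between 10.19 and 10.63. The difference of 0.51 was a fold of 1.43 (95% interval 0.914 to 2.23, limma p = 0.110, exact permutation p = 0.175), so the fold passed 1.3 and the test did not. FETUB passed the criterion without cow control_1041 (difference 0.67, limma p = 0.0407, adjusted p = 0.713, exact permutation p = 0.0909) or without cow GSGME_1047 (0.75, limma p = 0.00746, adjusted p = 0.968, exact permutation p = 0.0325).

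**Figure D2:**
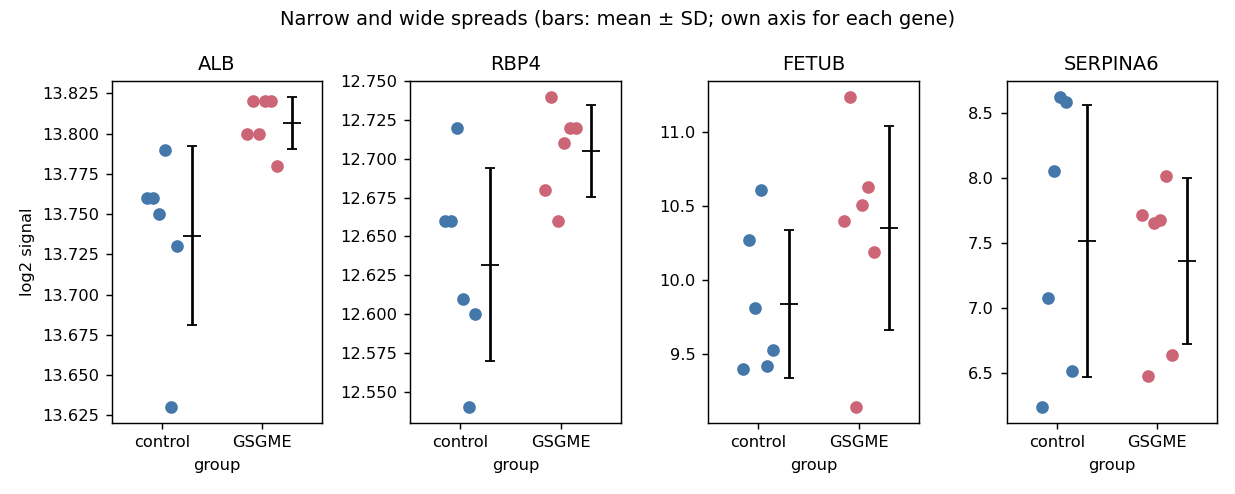
Log2 signal of ALB, RBP4, FETUB and SERPINA6 in each cow by group (circles), with the mean and SD of the group beside them (6 cows each); each gene has its own vertical axis. ALB and RBP4 span 0.19 and 0.20 log2 units over all cows, FETUB and SERPINA6 span 2.10 and 2.39.

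PON1 and PON3, esterases that travel in plasma on high density lipoprotein and hydrolyse lactones and oxidised lipids, are also neighbours. PON1 ran from 11.11 to 11.89 (median 11.59) in control and from 11.32 to 12.05 (median 11.75) in GSGME cows. Cows control_1031, control_1150 and control_1017 and cow GSGME_821 were low, at 11.11, 11.29, 11.36 and 11.32, and the other 8 cows lay at 11.63 or above. The difference was 0.18, a fold of 1.13 (95% interval 0.900 to 1.43, limma p = 0.263, exact permutation p = 0.316), and it was 0.094 without cow control_1031. PON3 ran from 10.06 to 10.89 (median 10.63) in control and from 10.37 to 10.85 (median 10.70) in GSGME cows. Cow control_1150 was lowest and the groups overlapped fully (difference 0.11, limma p = 0.450, exact permutation p = 0.472), and the difference was 0.0097 without that cow. PON2, the third gene of the cluster, which codes for a mainly intracellular enzyme, ran from 8.79 to 9.45 in control and from 8.88 to 9.52 in GSGME cows (difference 0.10, limma p = 0.447, exact permutation p = 0.465).

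**Figure D3:**
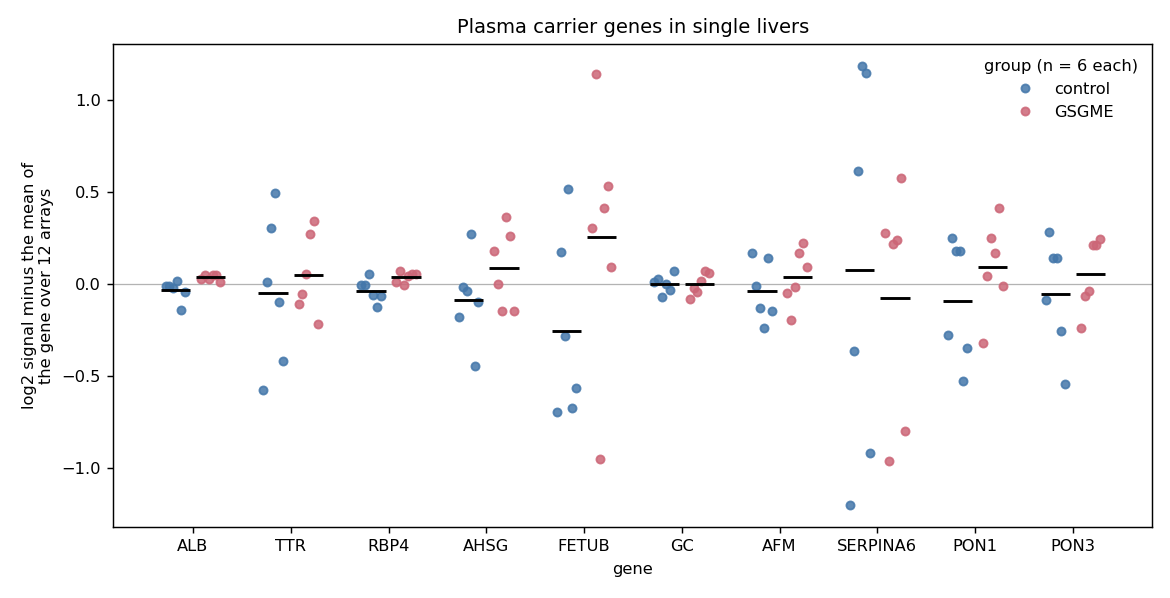
Log2 signal of each gene in each cow, as the deviation from the mean of that gene over the 12 arrays (vertical axis), with control and GSGME cows side by side and black bars at the group means (6 cows each). ALB, RBP4 and GC are nearly flat, while FETUB and SERPINA6 reach more than 1 log2 unit from their means.

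Since several of these proteins are negative acute phase proteins, each cow was placed by the mean log2 signal of positive acute phase genes on the same array (14 of 17 listed genes measured, among them HP, haptoglobin, SAA3 and LBP). This mean ran from 11.61 to 12.33 in control and from 11.61 to 12.02 in GSGME cows. Cows control_1031, control_1150 and control_1017 had the highest means of all 12 cows, 12.33, 12.12 and 12.05, and HP signals of 13.19, 13.12 and 12.93. Cow GSGME_1143, cow control_1041 and cow GSGME_1047 had the lowest means, with HP signals of 11.20, 10.70 and 10.65, while the lowest HP signal was that of cow GSGME_1124, 10.60. SAA3 did not follow this order throughout, with 11.37 in cow GSGME_821, the highest value, and 8.97 in cow control_1017. Of the 14 genes 1 was lower with GSGME at the criterion, SAA4 (difference -0.63, limma p = 0.0186, exact permutation p = 0.0476), and none was higher, where 0.624% of all transcripts were lower and 1.20% higher. The authors list SAA4 as constitutive and also discuss it as an acute phase protein. SAA2, another serum amyloid A, had a difference of -0.51 (limma p = 0.0515, exact permutation p = 0.0909). The median log2 difference of the 14 genes was -0.10, and the mean of the list was 11.96 ± 0.26 for control and 11.78 ± 0.16 for GSGME (SD over 6 cows).

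ALB, AHSG, PON1 and TTR tended to be lower in cows with a higher acute phase mean. Over all 12 cows the adjusted p of r lay above 0.05 for TTR. ALB was 13.63 in cow control_1031 and 13.73 in cow control_1150. In cow control_1017 it was 13.76, close to its mean of 13.77 over all cows. Over the 12 cows ALB had r = -0.83 (permutation p = 0.00106, 0.0267 after adjustment over the 55 relations computed) and rho = -0.76 (permutation p = 0.00593, adjusted 0.0689). PON1 had r = -0.82 (permutation p = 0.00102, adjusted 0.0267) and rho = -0.74 (permutation p = 0.00752, adjusted 0.0689). AHSG had r = -0.78 (permutation p = 0.0024, adjusted 0.0267) and rho = -0.75 (permutation p = 0.00645, adjusted 0.0689). TTR had r = -0.71 (permutation p = 0.00984, adjusted 0.0601) and rho = -0.81 (permutation p = 0.0019, adjusted 0.0522), and cow control_1031, with the highest acute phase mean, had a TTR signal of 12.93, close to the median. These 4 relations had the same sign in each diet, with r between -0.95 (AHSG) and -0.71 (TTR) among the 6 control cows and from -0.76 to -0.41 among the 6 GSGME cows. For ALB the GSGME cows spanned only 0.04 log2 units, in values given with 2 decimals. Without cows control_1031 and control_1150, the farthest from the median acute phase mean, r was -0.54 for ALB, -0.63 for PON1, -0.63 for AHSG and -0.82 for TTR. For TTR the adjusted p of r fell to 0.0305 without cow control_1031 (r = -0.85) and lay above 0.05 with any other cow left out. The adjusted p of r rose above 0.05 for ALB, PON1 and AHSG without any one of cows control_1017, control_1031 and control_1150 and cow GSGME_1143, and for AHSG also without cow control_1041 or cow GSGME_1124. After cyclic loess it was 0.159 for ALB (r = -0.64), 0.0627 for PON1 (r = -0.82) and 0.0818 for AHSG (r = -0.74). With the median of the acute phase genes in place of their mean, PON1 had an adjusted p of 0.0754 (r = -0.69) and TTR one of 0.0334 (r = -0.79).

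For the other 6 genes no relation with the acute phase mean had an adjusted p below 0.05. PON3 had r = -0.56 and RBP4 r = -0.52, which became -0.16 and 0.22 without cows control_1031 and control_1150. FETUB had r = -0.45, with -0.88 in control and 0.27 in GSGME cows. SERPINA6 had r = -0.24, but cow control_1031, with the highest acute phase mean, had the second highest SERPINA6 signal, 8.59, and without it r was -0.77. GC (r = 0.12) and AFM (r = 0.22) had positive values. The permutation p of these 6 genes lay between 0.0569 and 0.725, and the adjusted p between 0.184 and 0.848.

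**Figure D4:**
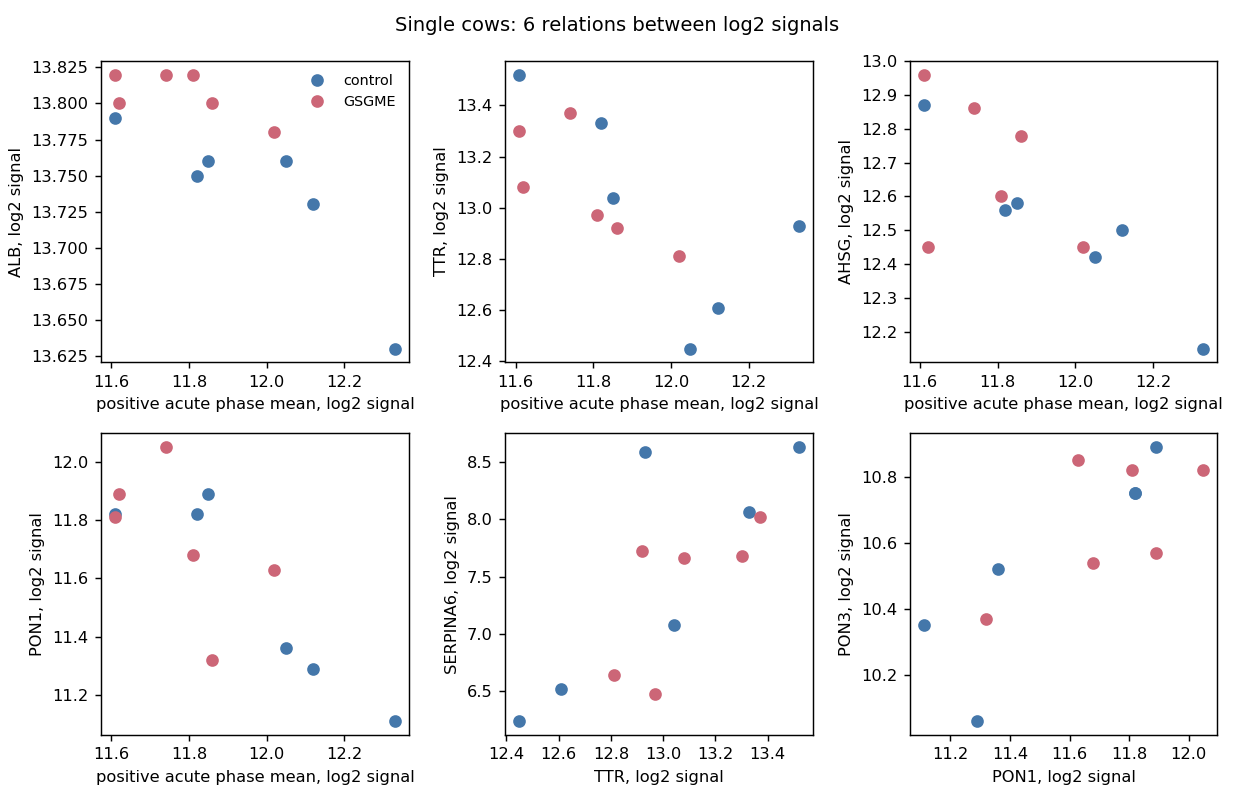
Log2 signals of single cows (circles, 6 control and 6 GSGME). The first 4 panels set ALB, TTR, AHSG and PON1 (vertical axis) against the mean log2 signal of the positive acute phase genes (horizontal axis), with r of -0.83, -0.71, -0.78 and -0.82, and the last 2 panels set SERPINA6 against TTR (r = 0.76) and PON3 against PON1 (r = 0.80).

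Among the 45 pairs of the 10 genes, 36 had a positive r over the 12 cows and the median r was 0.24. The highest was that of the neighbours PON1 and PON3, r = 0.80 (permutation p = 0.00192, adjusted 0.0267; rho = 0.73, permutation p = 0.00895, adjusted 0.0703), with 0.86 in control and 0.63 in GSGME cows. ALB went with RBP4 (r = 0.78, permutation p = 0.00422, adjusted 0.0344; rho = 0.62, permutation p = 0.0362, adjusted 0.166) and with AHSG (r = 0.77, permutation p = 0.00243, adjusted 0.0267; rho = 0.69, permutation p = 0.0166, adjusted 0.101). TTR went with SERPINA6 (r = 0.76, permutation p = 0.00438, adjusted 0.0344; rho = 0.70, permutation p = 0.0144, adjusted 0.0991). In control and in GSGME cows, r was 0.65 and 0.33 for ALB and RBP4, and 0.89 and 0.68 for ALB and AHSG. For TTR and SERPINA6 it was 0.82 and 0.70. Without the 2 cows farthest from the median of the first gene, r was 0.71 for PON1 and PON3 and 0.59 for ALB and AHSG. It was 0.58 for TTR and SERPINA6 and 0.30 for ALB and RBP4. For ALB and RBP4 those cows were control_1031 and control_1150. Leaving out only cow control_1031 gave r = 0.53 for this pair, and leaving out only cow control_1150 gave r = 0.76. The neighbours AHSG and FETUB had r = 0.68 (permutation p = 0.0151, adjusted 0.0754) and rho = 0.84 (permutation p = 0.0013, adjusted 0.0522). TTR and PON1 had r = 0.71 (permutation p = 0.0100, adjusted 0.0601) and rho = 0.76 (permutation p = 0.00532, adjusted 0.0689). GC and AFM had r between -0.38 and 0.24 with the other 8 genes. The 4 pairs with an adjusted p of r below 0.05 became none after cyclic loess or without any one of cows control_1017 and control_1150 and cows GSGME_1143 and GSGME_1124. PON1 and PON3, and also AHSG and FETUB, are related in sequence, and how far their probes share signal was not tested.

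**Figure D5:**
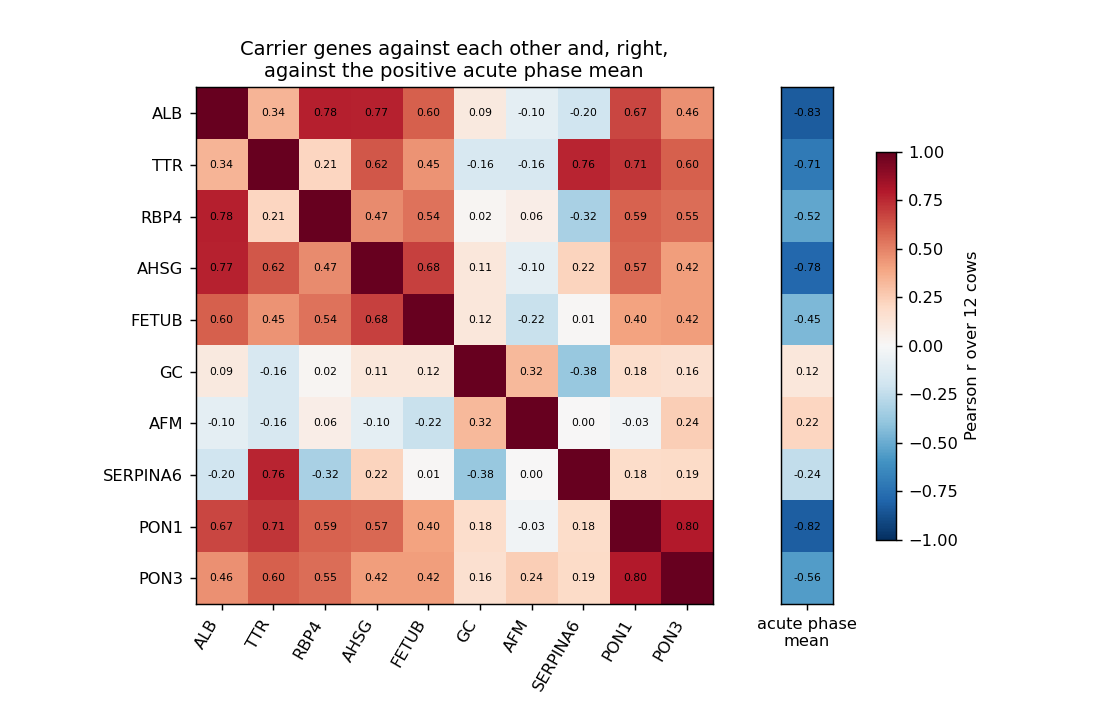
Pearson r over the 12 cows between the log2 signals of each pair of the 10 genes (square) and between each gene and the mean of the positive acute phase genes (column at the right), on a colour scale from -1 to 1. ALB, RBP4, AHSG, FETUB, PON1 and PON3 form a block of positive values between 0.40 and 0.80. TTR lies between 0.21 (RBP4) and 0.71 (PON1) with the genes of this block and at 0.76 with SERPINA6. GC and AFM lie between -0.38 and 0.24 with the other 8 genes.

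The transcripts whose pattern over the 12 arrays was most like that of each gene were picked as the 3 with the highest r among 10359 transcripts with a single symbol above the median transcript, so their r describes and tests nothing. For TTR these were ABCD4 (r = 0.93), IGF1 (r = 0.91) and EPHA1 (r = 0.90). IGF1, the growth factor that the liver releases under growth hormone, ran from 6.50 to 9.65 in control and from 8.11 to 9.48 in GSGME cows. For SERPINA6 they were INHCA (r = 0.92), ZDHHC14 (r = 0.88) and IGFALS (r = 0.87), which codes for the subunit that holds IGF1 in its large plasma complex. For PON3 they were SLCO1A2 (0.93), IL7 (0.91) and CYP7B1 (0.91), for PON1 LOC508455 (0.90), PEX2 (0.90) and ACSL5 (0.89), and for FETUB CDC23 (0.89), SERPINC1 (0.84) and LOC784603 (0.81). For ALB they were MAP3K4 (0.89), DCTN2 (0.89) and TRMT112 (0.89), and for RBP4 COLEC11 (0.87), OR13C2E, an olfactory receptor (0.86), and STK16 (0.86). AHSG had MGC137014 (0.89), TUSC3 (0.85) and TBCA (0.84). GC had KLHL15 (0.89), ZNF146 (0.87) and CALU (0.84), and AFM had C8H9orf85 (0.81), SHE (0.80) and HERC5 (0.79). For the mean of the 10 genes after centring each on its own mean, they were IGF1 (0.89), TF, transferrin (0.88), and CGN1 (0.88).

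Genes that handle the same ligands were compared in the same way. Of 11 measured genes of thyroid hormone handling, 17 of retinol handling and 9 of vitamin D handling, none passed the criterion, against 1.20% of all transcripts higher and 0.624% lower. Their median log2 differences were -0.02, 0.14 and 0.02. CYP2R1, a vitamin D 25-hydroxylase of the liver, had a difference of 0.32 (fold 1.24, limma p = 0.0253, exact permutation p = 0.0390), below the fold threshold, with means of 6.66 ± 0.31 for control and 6.97 ± 0.09 for GSGME (SD over 6 cows). ALDH1A1, which turns retinal into retinoic acid, had means of 12.58 ± 0.41 for control and 12.90 ± 0.07 for GSGME (limma p = 0.0556, exact permutation p = 0.0909), and LRAT, which esterifies retinol for storage, 7.24 ± 0.54 and 7.59 ± 0.21 (limma p = 0.113, exact permutation p = 0.206). THRB, a thyroid hormone receptor, had a difference of 0.20 (limma p = 0.0835, exact permutation p = 0.0952). SLCO1C1, a thyroid hormone transporter, lay between 3.52 and 3.97, in the range of the olfactory receptor signals, and no difference is given for it. CYP27A1, a sterol hydroxylase that also acts on vitamin D, had a difference of 0.15 (limma p = 0.198, exact permutation p = 0.221).

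Of 9 genes of glucocorticoid handling 1 was higher and none was lower, where 1.20% of all transcripts were higher and 0.624% lower. This was SRD5A1, a steroid 5-alpha-reductase, with means of 7.51 ± 0.15 for control and 7.89 ± 0.16 for GSGME (SD over 6 cows, difference 0.38, limma p = 0.00143, adjusted p = 0.830, exact permutation p = 0.00649), whose fold lay at the threshold, so that it passed the criterion in 6 of the 12 fits with a cow left out. FKBP5, which glucocorticoids induce, had log2 signals from 6.70 to 10.34 in control and from 6.54 to 8.45 in GSGME cows (difference -0.98, limma p = 0.0784, exact permutation p = 0.134). None of 11 genes that accompany the paraoxonases on lipoprotein, none of 20 other transport and inhibitor proteins of plasma and none of 17 liver-enriched transcription factors passed this criterion, with median log2 differences of 0.04, 0.06 and -0.08. PLTP, the phospholipid transfer protein, had a difference of 0.50 (limma p = 0.136, exact permutation p = 0.208), which was 0.21 without cow GSGME_821 (limma p = 0.351). Among the plasma proteins HRG, histidine-rich glycoprotein, the neighbour of FETUB, had a difference of 0.40 (limma p = 0.0912, exact permutation p = 0.0130), which was 0.15 without cow control_1150 (limma p = 0.0746). HPX, which binds free haem, had a difference of -0.24 (limma p = 0.100, exact permutation p = 0.141), and among the transcription factors FOXA3 had a difference of -0.37 (limma p = 0.108, exact permutation p = 0.167) and NR1H4, the bile acid receptor, of -0.14 (limma p = 0.118, exact permutation p = 0.0758).

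Markers of other cells gave no group shift past the criterion for macrophages (0 of 11), neutrophils (0 of 6), endothelium (0 of 8), stellate cells (0 of 8), bile duct (0 of 6) and red cells (0 of 4). Of 11 T and NK cell markers 1 was higher with GSGME (CD3D), of 6 B and plasma cell markers 1 (JCHAIN), and of 5 proliferation markers 4 (MKI67, CDK1, CCNA2 and BUB1B), where 1.20% of all transcripts were higher. The proliferation list mean ran from 5.00 to 6.36 in control and from 5.75 to 7.31 in GSGME cows, the T and NK cell mean from 5.51 to 5.86 and from 5.67 to 6.37, and the B and plasma cell mean from 6.03 to 6.22 and from 6.07 to 6.53. The stellate cell mean ran from 6.83 to 7.10 in control and from 6.79 to 7.95 in GSGME cows. For bile duct it ran from 5.76 to 6.03 and from 5.61 to 6.77, and for red cells from 5.465 to 6.01 and from 5.42 to 6.765. Macrophages had 8.32 to 9.00 and 8.42 to 9.09, neutrophils 5.40 to 6.73 and 5.31 to 6.21, and endothelium 8.32 to 8.63 and 8.22 to 8.77. The part of these cells in the values of the 10 genes was not tested.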

How the data were processed

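The authors hybridised liver RNA of 6 control and 6 GSGME cows to 1 Affymetrix Bovine Gene 1.0 ST array each. Cell intensities were computed with the Affymetrix GeneChip Command Console, and RMA in the Affymetrix Expression Console corrected the background, normalized across arrays and summarised probes (no version is given in the sources used here). The authors deposited log2 signals with 2 decimals for 26773 transcripts, with no stated filter. RMA makes the distributions of the arrays nearly equal, so a change shared by most transcripts would not be seen. Scan dates are not used here. No pair of arrays held identical values, and the groups share no cow number.

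Of the transcripts, 18457 carried 1 symbol, 688 several and 7628 none in the platform annotation, and gene IDs of 17996 matched the gene table (assembly ARS-UCD2.0, used for names and neighbours only). Where a listed gene had several transcripts, the one with the highest mean was taken. Groups were compared in limma 3.58.1 (R 4.3.3; lmFit and eBayes over all transcripts, two-sided, Benjamini-Hochberg adjustment), and single genes also with an exact permutation test. Relations over cows used Pearson's r and Spearman's rho with 100000 permutations (Python 3.11.15, numpy 2.4.6, scipy 1.17.1, pandas 2.3.3), and figures used matplotlib 3.10.9. The steps were tested on simulated data. The 10 genes and the lists were chosen with earlier results of these data known. All 10 genes are named. Of each list, genes past the criterion and up to 2 with the lowest limma p are named, and for each of the 10 genes the 3 transcripts with the most similar pattern and the neighbours on the chromosome could be named. HP, SAA3, LBP, APOB, CPS1 and ASGR1 were named as examples after their values were seen. As alternatives, array weights, cyclic loess, the methods' t-test, a trended and robust eBayes, a filter on dim transcripts, no fold threshold, the median of the acute phase list and leaving out each cow were run.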

Additional observations from a re-analysis of the deposited data

Results flagged for a closer look

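In 5 of 66 groups tested a single cow stood apart from the other 5, where chance alone gives about 1 in 20, and none of these was one of the 10 carrier genes. ALB in the control group lay at the critical value without passing it, with 13.63 in cow control_1031 against 13.73 in the next lowest. HRG was 11.28 in cow control_1150, against 12.59 in the next lowest control cow, a gap of 0.834 of the range of the group, and the group difference of 0.40 was 0.15 without this cow. The same cow had the highest AFP of the control group, 5.02, against 4.52 in the next, both in the range of the olfactory receptor signals. SRD5A1 was 7.80 in cow control_1041, against 7.52 in the next highest. CYP27A1, a sterol hydroxylase, was 10.37 in cow GSGME_1001, against 10.79 in the next lowest. PLTP, the phospholipid transfer protein, was 8.92 in cow GSGME_821, against 7.54 in the next highest, and the group difference of 0.50 was 0.21 without this cow.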

How the results depend on the processing

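Of the 10 genes, none passed the criterion in the methods' t-test, with eBayes with trend and robust, cyclic loess, array weights, a filter to transcripts above the median or with no fold threshold, and 0 to 1 did with each cow left out. The methods' t-test gave ALB and RBP4 an unadjusted p of 0.0145 and 0.0259 (adjusted p = 0.848 for both), beside an exact p of 0.00433 and 0.0346. With each cow left out the difference ran from -0.011 (cow control_1017) to 0.20 for TTR, from 0.33 to 0.75 for FETUB, from -0.41 to 0.069 for SERPINA6, from 0.055 to 0.091 for RBP4, from 0.097 to 0.241 for AHSG, from 0.094 to 0.264 for PON1, from 0.0097 to 0.176 for PON3, from 0.031 to 0.119 for AFM, from 0.049 to 0.081 for ALB and from -0.014 to 0.016 for GC. Of the other named genes, SAA4 passed the criterion with any cow left out, DNAJB11 in 10 and SRD5A1 in 6 of 12 cases, FKBP5 and SAA2 came past it in 3, ALDH1A1 in 2 and CYP2R1, LRAT and FOXA3 in 1. In the exact test cyclic loess gave differences of 0.04 for ALB (0.0369) and for RBP4 (0.0388), past no threshold. The cause was not tested. Over all transcripts, 322 were higher and 167 lower. There were 142 and 61 among transcripts above the median (fewer transcripts tested), 718 and 849 with no fold threshold, 226 and 109 with the methods' t-test, 375 and 112 with cyclic loess, and 271 to 468 higher and 139 to 289 lower with each cow left out, the highest lower count without cow control_819. Leaving out cow GSGME_1143 gave 1 transcript with an adjusted p below 0.05, and all other settings gave 0. Of the relations, the 4 pairs and the 3 genes tied to the acute phase mean with an adjusted p below 0.05 became 0 and 0 with cyclic loess, and 0 to 5 pairs and 0 to 3 genes with each cow left out. Leaving out cows for the relations, the exact test and the other named genes, and cyclic loess for the exact test, were chosen after seeing the data. With the median in place of the mean of the acute phase genes TTR came under an adjusted p of 0.05 (r = -0.79, adjusted 0.0334) and PON1 went above it (r = -0.69, adjusted 0.0754). The r of GC with the acute phase mean ran from -0.036 to 0.33. With 6 arrays per group, differences well below the spread of FETUB or SERPINA6 could not be resolved.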
